A study of Mus musculus with 68 samples.

Results

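WT#1 is the wild-type embryonic stem cell (ESC) clone that served as the control line of the other experiments of this series, and it was set here against the 6 other wild-type clones sequenced in the same August batch (WT#2 to WT#4 and WT#6 to WT#8). The members were chosen by the line number in the sample labels. WT#1 gave 2 libraries and each of the 6 other clones gave 2 libraries, so that 14 of the 68 samples of the series entered the comparison. All 7 clones are E14JU cells, a male mouse ESC line of strain 129/Ola, labelled wildtype, untreated and grown on gelatin in medium with serum and leukaemia inhibitory factor (LIF). They carry no MCM2-2A mutation, the change in the histone-binding region of the replicative helicase subunit MCM2 that the study is about, and no loss of POLE4, a subunit of the leading-strand DNA polymerase. Total RNA depleted of ribosomal RNA was sequenced, and reads were counted on genes and on repeat subfamilies.

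WT#1 is 1 clone. The comparison can show only whether this clone lay outside the spread of the 6 others, and libraries of the same clone share its history, so the counts of a clone were summed and the clone was the unit. The labels do not say whether the libraries of a clone came from separate cultures. Another 10 WT#1 cultures from elsewhere in the series (3 of a March batch, 4 of an experiment on reverted mutants, named rescue, and 3 of the POLE4 knockout experiment) are given beside the August values as a description, since their batch or experiment cannot be told apart from a lasting property of the clone. The 5 August MCM2-2A clones (10 libraries) are given in the same way.

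Mouse ESCs in serum and LIF are a mixed population. Most cells express the core pluripotency factors together with a variable set of naive factors, and a part of them moves towards the post-implantation epiblast, where WNT signalling through beta-catenin switches on primitive streak genes. Clones of an ESC line can also come to differ in chromosome content, in imprinted expression and in the level of repeats during culture, which is why the choice of the control clone matters for every comparison made with it.

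The 2 WT#1 libraries held 39506507 and 44181963 counts, against 30046007 to 51904648 in the 12 libraries of the other clones. All 7 clones expressed the genes that define ESCs. Pou5f1, the core factor OCT4, had 646 and 573 CPM (counts for each 1e+06 counts on genes, scaled by TMM factors) in WT#1, against 591 to 808 CPM in the other clones. Of the 4 trophoblast markers looked at, Cdx2 had 7.68 and 9.30 CPM in WT#1, against 0.229 to 9.63 CPM (median 1.75) in the others, Gata3 3.83 and 5.33 CPM, against 0.637 to 10.9 CPM, Krt7 4.55 and 7.61 CPM, against 0.229 to 5.15 CPM, and Elf5 0.0268 and 0.0713 CPM, against 0 to 0.248 CPM. Mcm2 had 370 and 331 CPM in WT#1, against 213 to 422 CPM in the others, where WT#6 and WT#8 averaged 217 and 232 CPM and the remaining 4 averaged 298 to 407 CPM. Pole4 had 50.7 and 52.9 CPM in WT#1, against 50.2 to 77.6 CPM in the others. WT#6 and WT#8 stand apart by Mcm2, and values without them are given where they move a result.

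No gene and no repeat subfamily passed the test. In edgeR's quasi-likelihood test on the clone sums (called at an adjusted p under 0.01 and an absolute log2 fold change over 0.58), 0 of 22746 genes (0%) and 0 of 1011 repeat subfamilies (0%) were called, and the lowest adjusted p over genes was 0.69. At an unadjusted p under 0.05, 879 genes (3.86%) were higher and 537 (2.36%) lower in WT#1, 1416 (6.23%) in either direction. DESeq2 also called 0 genes, with 1474 at an unadjusted p under 0.05, and limma-voom on single libraries with the clone as a random effect called 0, with 2791. Every gene described below was thus not called, and its adjusted p in edgeR was at least 0.69 with all clones in the fit. Each comparison gives WT#1 over the mean of the 6 other clones, with the standard error (SE) of the log2 fold change.

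The test does not show that WT#1 is like the others. The median standard error of the log2 fold change was 0.315 over all genes tested and 0.203 over the 15038 genes of at least 1 CPM in the higher group. In those 15038 genes the 95% interval stayed within ±1 on the log2 scale for 71.5% and within ±0.58 for 41.9%. The median log2 fold change over all genes tested was -0.0037. With both WT#1 libraries taken one by one, 1277 genes (5.61%) were above all 12 libraries of the other clones and 767 (3.37%) were below all 12.

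WT#1 lay at the edge of the clones but was not the most distant one. The distance between clones was taken as the root mean square difference of log2(CPM + 0.5) over all genes tested. WT#1 was closest to WT#2 (0.29) and WT#4 (0.291) and farthest from WT#6 (0.587). Its median distance to the other clones was 0.429, against 0.448 for WT#6, 0.385 for WT#8 and 0.324 to 0.362 for the remaining clones. The closest pair was WT#3 and WT#7, at 0.181. On the first principal component of the 14 libraries (38.7% of the variance) the WT#1 libraries had scores of -35.5 and -43.2, WT#2 had -18.6 and -35.5, and WT#6 was at the other end with 48.9 and 45.2.

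**Figure D1:**
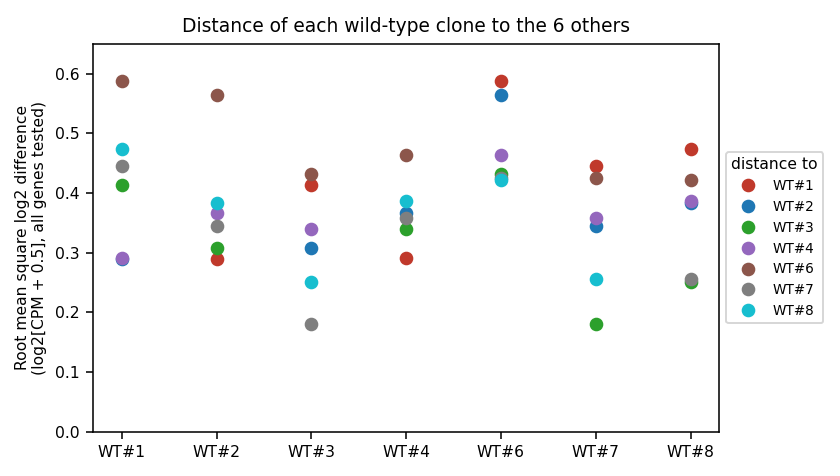
Root mean square log2 difference (y axis, log2 of CPM + 0.5 over all genes tested) between each wild-type clone on the x axis and the 6 others, 1 point per pair, coloured by the other clone. WT#1 spans 0.29 to 0.587, with its points for WT#2 and WT#4 on top of each other, and WT#6 has no distance under 0.422.

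The genes of lowest unadjusted p among those with at least 1 CPM in the higher group were 14 with higher and 6 with lower levels in WT#1, none of them called. In 18 of these 20 genes both WT#1 libraries lay beyond all 12 libraries of the other clones, and in 15 they lay beyond the 10 August MCM2-2A libraries as well. Over all genes tested, 896 (3.94%) were above and 473 (2.08%) below all 22 other August libraries. The 20 genes were picked by their p, so that these counts only describe them. The gene of lowest p was Ddx3y (ENSMUSG00000069045, chromosome Y, 1260771 to 1286629 in build GRCm38), which encodes a Y-linked RNA helicase. It had 52.1 and 60.8 CPM in WT#1, against 75.7 to 95.7 CPM (median 84.4) in the 12 other libraries. Both WT#1 libraries were below every other one (log2 fold change -0.58, SE 0.105, 95% interval -0.82 to -0.34, edgeR adjusted p = 0.69).

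Eif2s3y, the Y-linked gene of a translation initiation factor subunit, had 38.8 and 39.3 CPM in WT#1, against 41.8 to 58.9 CPM in the other clones (log2 fold change -0.33). Uty, a Y-linked histone demethylase paralogue, had 35.1 and 39.9 CPM in WT#1, against 39.4 to 50.4 CPM, with ranges that overlap. Uba1y, another Y-linked gene, averaged 10.0 CPM in WT#1, against 4.4 CPM in WT#8 and 18.1 CPM in WT#4. Over the 71 chromosome Y genes tested, the median log2 fold change was -0.475, and it was -0.154 without WT#1 replicate 5 and -0.986 without WT#1 replicate 4. As log2(CPM + 0.5) relative to the mean of the 6 other clones, the median of these genes was only -0.0996 in WT#1. WT#6 was lower, at -0.114.

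Peg13 (ENSMUSG00000106847, chromosome 15, 72805600 to 72810324), an imprinted noncoding RNA annotated as sense intronic, had 0.803 and 1.90 CPM in WT#1, against 2.81 to 4.07 CPM (median 3.02) in the other clones (log2 fold change -1.19, SE 0.257, edgeR adjusted p = 0.69). Both WT#1 libraries were again below all others. The estimate was -0.745 without WT#1 replicate 4 and -1.97 without WT#1 replicate 5. Slc11a1, a metal ion transporter of phagocytes, had 0.8294 and 0.8561 CPM in WT#1, against 1.84 to 5.11 CPM in the others (log2 fold change -1.94, SE 0.491). Mapt, which encodes the microtubule-associated protein tau, had 9.04 and 8.28 CPM in WT#1, against 12.1 to 16.7 CPM in the others (log2 fold change -0.71, SE 0.165). Spats1 had 2.14 and 2.38 CPM, against 4.06 to 6.46 CPM, and Nudt17 had 0.375 and 0.761 CPM, against 0.949 to 1.77 CPM.

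Among the genes with higher levels in WT#1, Cpxm2, which encodes a carboxypeptidase-like protein, had 2.09 and 2.16 CPM in WT#1, against 0.106 to 0.696 CPM in the other clones (log2 fold change 2.65, SE 0.499, edgeR adjusted p = 0.69). Fam53b had 10.4 and 9.77 CPM in WT#1, against 2.91 to 5.40 CPM in the others (log2 fold change 1.24, SE 0.271). Ppp2r2c, a regulatory subunit of protein phosphatase 2A, had 14.5 and 16.1 CPM in WT#1, against 3.64 to 9.16 CPM (log2 fold change 1.30, SE 0.336). Apob, the main apolipoprotein of very low density lipoprotein, had 3.83 and 5.54 CPM, against 1.36 to 2.97 CPM, and Psme2b had 7.33 and 7.35 CPM, against 1.79 to 4.28 CPM. Gad1, Homer2, She, Prr18, Sox6, Scin and Kcnq5 were likewise above all 12 other libraries, with log2 fold changes of 0.70 for She to 1.59 for Prr18. For Zfp202 the lower WT#1 library lay within the range of the other clones.

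**Figure D2:**
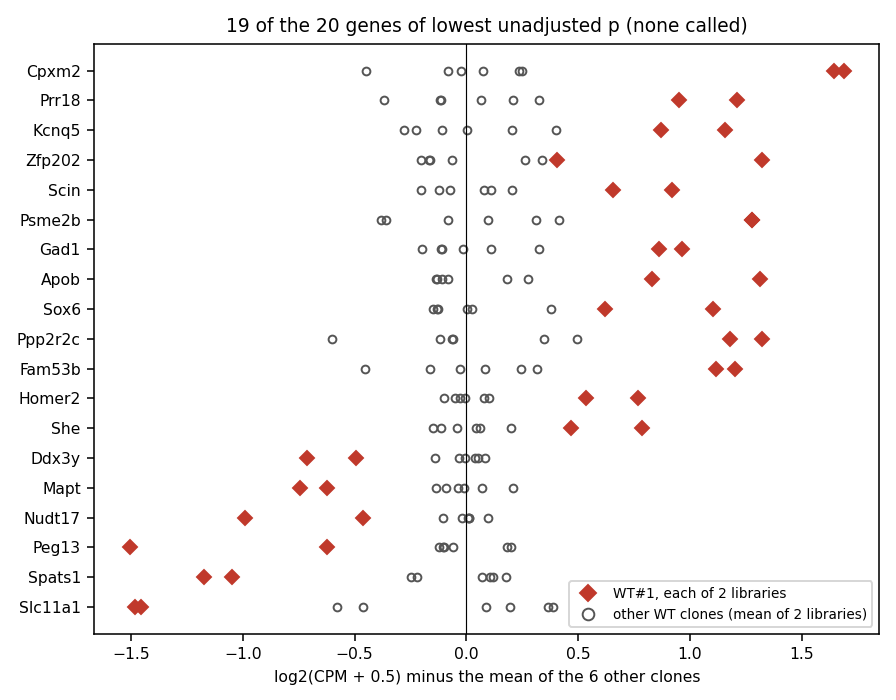
Level of 19 of the 20 genes of lowest unadjusted p as log2(CPM + 0.5) minus the mean of the 6 other clones (x axis), with red diamonds for each of the 2 WT#1 libraries and open circles for each other clone (mean of 2 libraries). None was called; the WT#1 diamonds of Ddx3y and Peg13 lie left of all circles and those of Cpxm2 and Ppp2r2c lie right of them.

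Primitive streak and WNT response genes had the median farthest from 0 among the 27 gene lists. WT#1 had higher levels than the mean of the other clones for all 20 tested members of this list, with a median log2 fold change of 1.45, and 5 members were at an unadjusted p under 0.05, all higher (Eomes, Mixl1, Lhx1, Axin2 and Sp5), beside 3.86% of all genes. Both WT#1 libraries were above all 12 others for 6 members, beside 5.61% of all genes, and below all for 0. Eomes, a T-box factor of the streak, had 9.42 and 10.1 CPM in WT#1, against 1.61 to 8.77 CPM (median 2.99) in the other clones (log2 fold change 1.39, SE 0.596). Axin2, a feedback inhibitor and standard readout of WNT signalling, had 27.6 and 32.1 CPM in WT#1, against 9.57 to 25.9 CPM (log2 fold change 1.10, SE 0.438). Mixl1, a homeobox gene of the streak, had 2.52 and 3.52 CPM, against 0.369 to 2.90 CPM, and T, the gene of brachyury, had 25.2 and 33.6 CPM, against 0.20 to 37.5 CPM. The upper end of these ranges came from WT#2, where T averaged 28.1 CPM, while WT#6 averaged 0.252 CPM.

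Sp5 (ENSMUSG00000075304, chromosome 2, 70474923 to 70477729), which encodes a zinc finger factor induced directly by WNT signalling, was the one gene called under any alternative. It had 20.4 and 23.8 CPM in WT#1. WT#2 had 11.88 and 23.66 CPM (17.8 CPM on average), and the 5 remaining clones averaged 2.63 to 3.63 CPM. Against all 6 clones the log2 fold change was 2.03 with an SE of 0.867 (edgeR adjusted p = 0.69), and without WT#2 it was 2.83 with an SE of 0.172 (edgeR adjusted p = 0.00927). WT#1 and WT#2 were thus high together, and the call rests on leaving WT#2 out. The RefSeq promoter window of Sp5 (GRCm38.p6, chr2:70474673-70474972, plus strand, from 250 bases before to 50 after the gene start) is shown because it holds the letters CTTTGA, the core bound by the TCF and LEF factors of the WNT pathway, 2 times on the strand shown, at -204 and -104 from the start (capitals).
Sp5: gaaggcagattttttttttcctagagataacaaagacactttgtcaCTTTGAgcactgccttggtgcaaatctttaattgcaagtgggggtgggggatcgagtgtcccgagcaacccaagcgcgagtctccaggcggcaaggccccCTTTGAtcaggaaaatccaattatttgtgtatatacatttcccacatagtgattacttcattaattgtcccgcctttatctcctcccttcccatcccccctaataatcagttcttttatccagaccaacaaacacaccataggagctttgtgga
CTTTGA on either strand is in 16% of the 32851 promoter windows of that table and in those of 5 of the 17 listed genes with a window (Foxa2, Mesp1, Msgn1, Sp5 and T). A match describes the letters and not a bound site.

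The WNT ligand family was similar. Its 17 tested members had a median log2 fold change of 1.33, with none at an unadjusted p under 0.05. Wnt3, the ligand that initiates the streak in the embryo, had 12.3 and 17.8 CPM in WT#1, against 0.343 to 21.9 CPM in the other clones, with ranges that overlap.

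Naive pluripotency genes lay on the other side. WT#1 had lower levels for 27 of the 30 tested members, with a median log2 fold change of -0.384, and 5 were at an unadjusted p under 0.05, all lower (Sox2, Zfp42, Fgf4, Tet1 and Tet2), beside 2.36% of all genes. Sox2, the partner of OCT4, had 214 and 197 CPM in WT#1, against 216 to 306 CPM (median 272) in the other clones (log2 fold change -0.38, SE 0.162). Tet1, which oxidises 5-methylcytosine, had 474 and 550 CPM in WT#1, against 630 to 1086 CPM (log2 fold change -0.66, SE 0.232). Zfp42, the marker REX1, had 257 and 256 CPM, against 256 to 416 CPM, and Nanog had 200 and 193 CPM, against 199 to 306 CPM. Esrrb, an orphan receptor of the naive network, had 191 and 180 CPM, against 203 to 426 CPM. Both WT#1 libraries were below all others for Sox2, Tet1 and Esrrb, and overlapped the lower end of their range for Zfp42 and Nanog. Over the whole list they were below all 12 others for 8 members, beside 3.37% of all genes, and above for 1, beside 5.61%. In WT#6, the clone with the highest median of this list, Esrrb averaged 412 CPM and Tet1 1049 CPM. The RNA binding protein gene Lin28a was an exception in the list, with 604 and 590 CPM in WT#1, against 416 to 582 CPM in the others. In bulk RNA, fewer cells of a type and less RNA per cell cannot be told apart.

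Fibroblast, matrix and cytoskeletal lists had positive medians, with few members past the unadjusted threshold. The fibroblast list had a median log2 fold change of 1.31 over 16 tested genes, all with positive estimates, with 3 at an unadjusted p under 0.05 (Col5a1, Fbn1 and Mmp2) beside 3.86% of all genes, and its summed level was 322 and 380 CPM in WT#1, against 114 to 332 CPM in the others. Col5a1, a fibrillar collagen chain, had 46.4 and 54.5 CPM in WT#1, against 9.88 to 42.0 CPM, and Fbn1, the microfibril protein fibrillin, had 12.6 and 15.5 CPM, against 3.10 to 11.2 CPM. Col1a1 had 37.7 and 54.1 CPM in WT#1, against 0.457 to 70.6 CPM in the others. Its level was high in WT#1 and WT#4 (63.0 CPM on average) and low in WT#6 (0.744 CPM). Of the other defining fibroblast markers, Col3a1 had 5.22 and 7.49 CPM in WT#1, against 0 to 7.54 CPM (median 0.331), Col1a2 1.85 and 3.31 CPM, against 0.0857 to 4.15 CPM (median 0.54), and Thy1 5.78 and 5.61 CPM, against 2.17 to 8.20 CPM (median 2.78). Dcn had 0.268 and 0.404 CPM in WT#1, against 0 to 0.35 CPM, Lum 0.0535 and 0.119 CPM, against 0 to 0.195 CPM, and Postn 0.161 and 0.143 CPM, against 0 to 0.368 CPM. For each of these 6 markers at least 1 WT#1 library lay within the range of the others, and the part of other cell types in the list medians was not tested. The trophectoderm list also had a positive median (0.669, positive estimates for 19 of 20 genes). In it 2 genes were higher at an unadjusted p under 0.05, beside 3.86% of all genes.

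The actomyosin and SRF target list had a median of 0.812 over 24 genes, with 1 higher at an unadjusted p under 0.05 (Srf), beside 3.86% of all genes. Its summed level was 7997 and 8369 CPM in WT#1, against 5426 to 9864 CPM in the others, and the list was at 0.828 in WT#1 and 0.76 in WT#2 relative to the mean of the 6 other clones. WT#1 thus lay inside the range of the other libraries for this list. The extracellular matrix and adhesion list had a median of 0.388 over 24 genes, 17 of them positive. At an unadjusted p under 0.05, 4 were higher and 1 was lower, beside 3.86% and 2.36% of all genes. The summed level of this list was 2988 and 3012 CPM in WT#1, against 2766 to 3146 CPM in the others. Cdh2, the gene of N-cadherin, had 15.3 and 17.1 CPM in WT#1, against 3.63 to 11.7 CPM (log2 fold change 1.24, SE 0.449). Without WT#6 and WT#8, the medians were 0.923 for the fibroblast list, 0.609 for the actomyosin list and 1.11 for the streak list.

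The list of amino acid and endoplasmic reticulum stress genes was named for the transcription factor ATF4 and includes Atf4 itself. Levels in WT#1 were lower for 20 of the 25 tested genes of this list. At an unadjusted p under 0.05 there were 7, all lower (Atf4, Trib3, Chac1, Shmt2, Mthfd2, Nupr1 and Xbp1), beside 2.36% of all genes, and the median log2 fold change was -0.237. Chac1, which degrades glutathione, had 1.71 and 2.43 CPM in WT#1, against 3.19 to 9.51 CPM (median 6.72) in the other clones (log2 fold change -1.57, SE 0.525). Trib3, a pseudokinase induced by ATF4, had 7.22 and 7.56 CPM in WT#1, against 9.74 to 19.1 CPM (log2 fold change -0.96, SE 0.347). Nupr1, a small stress-induced nuclear protein, had 0.375 and 0.357 CPM in WT#1, against 0.65 to 2.32 CPM (log2 fold change -1.86, SE 0.618). Shmt2 and Mthfd2, the mitochondrial serine and folate enzymes, had log2 fold changes of -0.38 and -0.55. For Chac1, Trib3, Nupr1, Shmt2 and Mthfd2 both WT#1 libraries were below all 12 others. Over the whole list they were below all 12 for 7 members, beside 3.37% of all genes, and above for 1, beside 5.61%. Hspa5, the chaperone BiP, lay on the other side, with 501 and 502 CPM in WT#1, against 385 to 473 CPM.

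The RefSeq promoter windows of Chac1 (GRCm38.p6, chr2:119350992-119351291, plus strand), Trib3 (chr2:152344011-152344310, minus strand) and Nupr1 (chr7:126625421-126625720, minus strand) are shown because they are those of the 7 genes just named whose windows hold the letters TGATGNAA, the composite element bound by ATF4 with C/EBP factors. Capitals mark the match, which is on the opposite strand in all 3 and is therefore printed as its reverse complement.
Chac1: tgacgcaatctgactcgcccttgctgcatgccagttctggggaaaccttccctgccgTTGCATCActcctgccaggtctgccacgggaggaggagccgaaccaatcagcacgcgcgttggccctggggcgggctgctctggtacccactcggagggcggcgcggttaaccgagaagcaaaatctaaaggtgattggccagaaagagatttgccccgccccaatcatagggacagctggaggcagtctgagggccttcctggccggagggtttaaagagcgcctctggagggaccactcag
Trib3: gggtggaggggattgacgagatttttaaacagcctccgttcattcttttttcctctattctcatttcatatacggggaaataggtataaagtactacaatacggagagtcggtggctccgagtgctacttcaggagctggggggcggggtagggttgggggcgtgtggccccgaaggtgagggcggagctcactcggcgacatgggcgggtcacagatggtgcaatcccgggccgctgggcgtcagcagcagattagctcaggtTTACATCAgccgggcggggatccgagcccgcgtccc
Nupr1: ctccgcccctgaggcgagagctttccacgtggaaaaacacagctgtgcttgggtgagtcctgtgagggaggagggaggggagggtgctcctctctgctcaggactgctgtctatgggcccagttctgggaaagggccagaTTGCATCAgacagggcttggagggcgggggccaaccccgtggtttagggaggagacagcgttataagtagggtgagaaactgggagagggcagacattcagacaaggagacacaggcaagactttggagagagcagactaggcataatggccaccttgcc
TGATGNAA on either strand is in 3.97% of the 32851 promoter windows and in those of 7 of the 22 listed genes with a window (Asns, Chac1, Herpud1, Nupr1, Slc7a11, Trib3 and Vldlr). The list was built around ATF4, which binds this element, so that this share says nothing about WT#1.

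Cholesterol and lipid synthesis genes differed little in size but mostly in one direction. WT#1 had positive estimates for 23 of 25 tested genes, with a median log2 fold change of 0.206, and 4 were higher at an unadjusted p under 0.05, beside 3.86% of all genes, Hmgcs1 and Scd2 among them. Hmgcs1, a synthase early in the cholesterol pathway, had 214 and 230 CPM in WT#1, against 157 to 216 CPM in the other clones, with ranges that overlap (log2 fold change 0.26, SE 0.108). Scd2, a fatty acid desaturase, had 408 and 451 CPM, against 191 to 391 CPM. The DNA methylation enzyme list, which also holds factors such as Zfp57, had a median of -0.15 over 12 genes. Tet1, Tet2 and Zfp57 were lower at an unadjusted p under 0.05, beside 2.36% of all genes, and Tet1 and Tet2 were already counted in the naive list. The median of the DNA methylation enzyme list was -0.262 to -0.043 when 1 library or clone was left out. The remaining 19 gene lists had medians between -0.451 and 0.669, and 0 of them held a called gene.

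**Figure D3:**
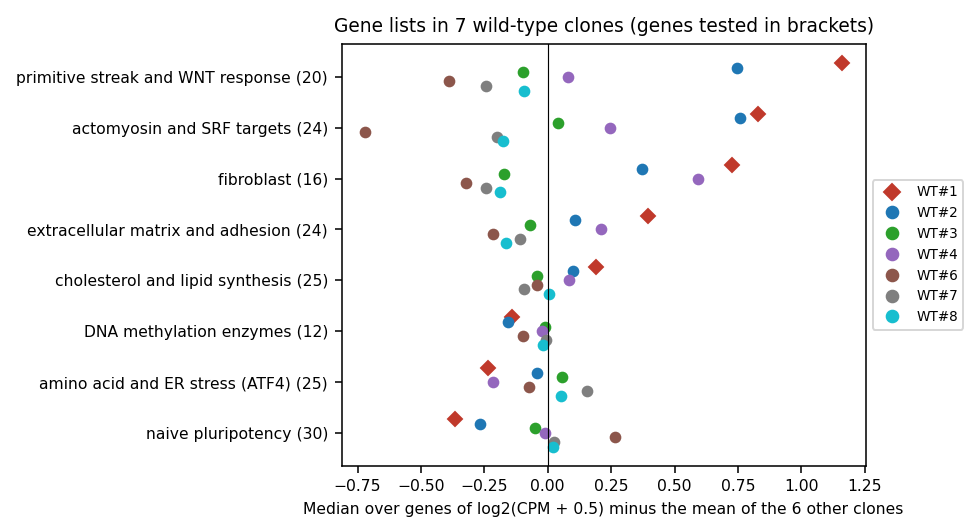
Median over the tested genes of 8 lists (rows, number of genes in brackets) of log2(CPM + 0.5) minus the mean of the 6 other clones (x axis), 1 symbol per clone and a red diamond for WT#1. WT#1 is the highest clone for the streak, actomyosin, fibroblast, matrix and cholesterol lists and the lowest for the ATF4 and naive lists, with WT#2 next to it for the streak (0.747) and naive (-0.268) lists and WT#4 next to it for the fibroblast (0.593) and ATF4 (-0.217) lists.

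The order of clones thus depended on the list. For the streak list the clone medians relative to the mean of the 6 others were 1.16 for WT#1, 0.747 for WT#2 and -0.39 to 0.078 for the rest. For the naive list they were -0.367 for WT#1, -0.268 for WT#2 and -0.051 to 0.264 for the rest, the highest being WT#6. For the ATF4 list they were -0.237 for WT#1, -0.217 for WT#4 and -0.072 to 0.154 for the rest. By single libraries the ATF4 list was at -0.26 and -0.24 in WT#1, against -0.252 to 0.203 in the other clones.

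Levels along chromosomes showed a long stretch of chromosome 14. Running medians of 25 consecutive genes (at least 1 CPM) were taken, and runs beyond ±0.3 on the log2 scale were joined. The longest run covered 175 genes from Hnrnpc to Slc39a14 (chromosome 14, 52073377 to 70351425), with a median log2 fold change of 0.387 in WT#1 and positive estimates for 151 genes. A neighbouring run of 33 genes from Gm6580 to Parp2 (46027428 to 50821301) had a median of 0.283. Of the 175 genes 0 were called, 8 were at an unadjusted p under 0.05, beside 6.23% of all genes, and WT#4 and WT#6 were high over the same genes. Relative to the mean of the 6 other clones the run was at 0.449 in WT#1, 0.6 in WT#6 and 0.533 in WT#4, and at -0.296 to -0.245 in the 4 remaining clones.

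Single genes of this run showed the same split. Supt16, a subunit of the histone chaperone FACT, averaged 423 CPM in WT#1, against 438.5 CPM in WT#4, 519 CPM in WT#6 and 217 to 253 CPM in the 4 remaining clones. Prmt5, the main symmetric arginine methyltransferase, averaged 167 CPM in WT#1, against 190 CPM in WT#4, 177 CPM in WT#6 and 82.1 to 92.1 CPM in the remaining clones. Ppp2r2a, a regulatory subunit of protein phosphatase 2A, averaged 123 CPM in WT#1, against 116 CPM in WT#4, 113 CPM in WT#6 and 60.9 to 67.4 CPM in the remaining clones. The log2 fold changes of Supt16 and Prmt5 against the mean of the other clones were 0.43 and 0.50, with SEs of 0.473 and 0.485 (edgeR, adjusted p = 0.80 for Supt16 and adjusted p = 0.773 for Prmt5).

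The chromosome 14 stretch was on the high side in every WT#1 library. The run was at 0.455 and 0.441 in the August libraries, at 0.457 to 0.473 in the March libraries, at 0.469 to 0.539 in the rescue cultures and at 0.583 to 0.664 in the POLE4 experiment, beside values from -0.045 to 0.010 for the median of all genes in any library. Of the August MCM2-2A clones, #5 (0.524 and 0.522) and #8 (0.607 and 0.59) were on the high side and #4, #6 and #7 on the low side (-0.318 to -0.278). DNA copy number was not measured in these libraries, and its part in these levels was not tested.

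**Figure D4:**
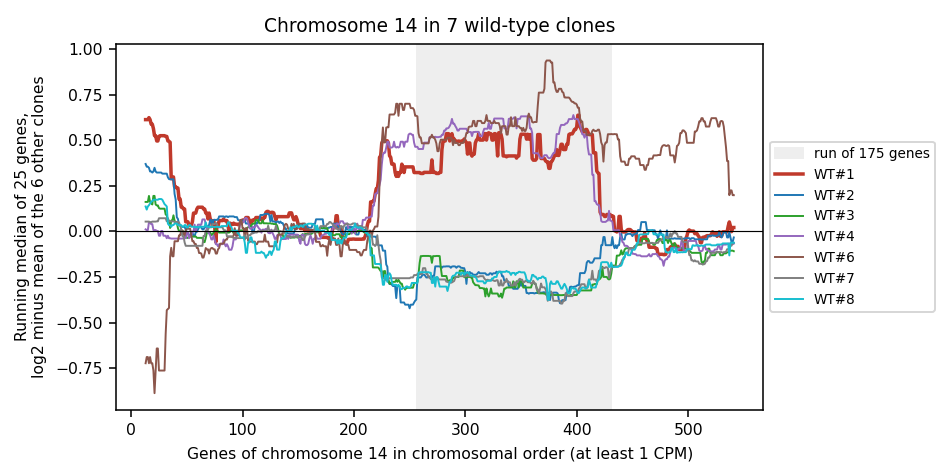
Running median over 25 genes of log2 level minus the mean of the 6 other clones (y axis) along the genes of chromosome 14 in chromosomal order (x axis), 1 line per clone and a thick red one for WT#1. Grey marks the run of 175 genes. WT#1, WT#4 and WT#6 lie above 0 across the grey stretch (medians 0.449, 0.533 and 0.6) and the other clones below 0. WT#1 and WT#4 are back near 0 after it, while WT#6 stays above 0 to the end.

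The remaining 8 runs held 25 to 50 genes each. At the start of chromosome 14 a run of 50 genes, 39 of them numbered Gm gene models, had a median log2 fold change of 0.606 (3049285 to 11356726), and WT#6 was at -0.564 there. These gene models include near-identical copies, so that their counts are uncertain. On chromosome X a run of 36 genes from Gria3 to Phf6 (41400854 to 52956943) had a median of 0.358, and on chromosome 7 a run of 32 genes, 11 of them Zfp zinc finger genes, had a median of 0.288. The chromosome 7 value was 0.0895 without WT#6 and WT#8. On distal chromosome 2, runs of 26 and 31 genes, 19 and 23 of them Gm models, had medians of -0.278 and -0.251. Runs of 25 genes on chromosome 12, 35 on chromosome 15 and 25 on chromosome 17 had medians of 0.306, 0.253 and -0.301. When 1 library or clone was left out, the medians were 0.121 to 0.308 for chromosome 12, 0.149 to 0.333 for chromosome 15, 0.234 to 0.365 for chromosome X and -0.407 to -0.175 for the first run on chromosome 2.

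No repeat subfamily was called, and the WT#1 libraries differed from each other over several repeat families. The median log2 fold change over the 1011 repeat subfamilies tested was -0.085, with 3 (0.297%) higher and 28 (2.77%) lower at an unadjusted p under 0.05 (3.07% in either direction). Both WT#1 libraries were above all 12 libraries of the other clones for 2 subfamilies (0.198%) and below all 12 for 17 (1.68%). Set against all 22 other August libraries, 1 (0.0989%) was above and 15 (1.48%) were below. The 271 ERVK subfamilies, the family that holds the IAP elements, had a median of -0.139, the 109 ERV1 subfamilies -0.184, the 101 ERVL subfamilies -0.156 and the 130 L1 subfamilies -0.061. Relative to the mean of the 6 other clones, replicates 4 and 5 of WT#1 were at -0.32 and -0.003 for ERVK, at -0.285 and -0.028 for ERV1, at -0.323 and 0.086 for ERVL and at -0.392 and 0.126 for L1. Replicate 4 was the lower one for each of these families. Repeat counts made up 3.36% of the counts in replicate 4 and 4.31% in replicate 5, against 3.52% to 5.30% in the other clones, and in 7 of 7 clones the library with the higher number had the higher share. Its part in the repeat levels was not tested. The young L1 subfamilies, which include those that still retrotranspose in mice, were at -0.405 and -0.404 in replicates 4 and 5. All 6 had negative estimates, with a median log2 fold change of -0.384, and L1Md_A, L1Md_T and L1Md_Gf were lower at an unadjusted p under 0.05, beside 2.77% of all subfamilies. L1Md_Gf had 66.0 and 59.3 CPM in WT#1, against 75.2 to 110 CPM (median 91.1) in the other clones (log2 fold change -0.53, SE 0.175, edgeR adjusted p = 0.992). Both WT#1 libraries were below all others. The major satellite GSAT_MM, the repeat of mouse pericentromeres, had 3.77 and 2.83 CPM in WT#1, against 4.20 to 21.2 CPM (log2 fold change -1.54, SE 0.556). The subfamily of lowest p was RLTR41B, an ERV1 long terminal repeat, with 0.0803 and 0.0713 CPM in WT#1, against 0.20 to 0.533 CPM in the others (log2 fold change -2.24, SE 0.457). The 18 IAP subfamilies had a median of -0.184, with none at an unadjusted p under 0.05.

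The other WT#1 cultures were set beside the August levels. Over all genes tested, 17 (0.0747%) were above and 15 (0.0659%) below all 12 libraries of the other clones in every one of the 12 WT#1 libraries and cultures, as was 1 repeat subfamily below (ORR1A0-int, 0.0989%) and 0 above (0%). Of the named genes, 3 of the 20 were among them (Ddx3y, Peg13 and Ppp2r2c). Ddx3y had 52.1 to 60.8 CPM in August, 57.3 to 67.9 CPM in March, 40.4 to 49.6 CPM in the rescue experiment and 69.7 to 74.1 CPM in the POLE4 experiment, all under the lowest value of the other clones (75.7 CPM). In the August MCM2-2A clones it ranged from 6.77 to 68.4 CPM, so that these clones too were below all of the other wild-type clones. Peg13 had 0.803 to 2.19 CPM over the 12 WT#1 libraries and cultures, against 2.02 to 4.06 CPM in the MCM2-2A clones and 2.81 to 4.07 CPM in the other wild-type clones. Gnas, the imprinted gene of the stimulatory G protein alpha subunit (chromosome 2, 174284320 to 174346744), had 148 and 140 CPM in the August WT#1 libraries and 120 to 185 CPM in the other WT#1 cultures, against 53.4 to 112 CPM in the other wild-type clones (August log2 fold change 0.92, SE 0.36). The MCM2-2A clones had 43.3 to 77.1 CPM.

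Ppp2r2c had 9.38 to 21.3 CPM in the 12 WT#1 libraries and cultures, against 3.64 to 9.16 CPM in the other wild-type clones. Micu2 (a regulator of the mitochondrial calcium uniporter, inside the chromosome 14 run), Stx3 (a syntaxin) and Cldn3 (a tight junction claudin) were also above in all 12, with August log2 fold changes of 1.00, 0.84 and 0.96, and Tmem64 and Slc29a3 were below in all 12, with -0.29 and -0.41. These genes were picked for this pattern after their values were seen. All 17 genes above and 8 of the 15 below are annotated as protein coding. Those below also include 4 processed pseudogenes, whose counts can be shared with their parent genes.

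Some August differences recurred in part and some did not. Sox2 had 269 to 381 CPM in the 10 other WT#1 cultures, against 197 and 214 CPM in August. The naive list was at -0.368 and -0.338 in the August WT#1 libraries and between -0.074 and 0.289 in the 10 other cultures. In the libraries of the other wild-type clones the naive list was at -0.375 to 0.263, a range that holds both August values. The ATF4 list was at -0.26 and -0.24 in the August WT#1 libraries and at -0.28 to 0.0737 in March. In the rescue cultures it was at 0.654 to 0.81, above the range of the other wild-type clones (-0.252 to 0.203). In the POLE4 experiment it was at -0.101 to 0.512. Chac1 had 15.5 to 26.0 CPM in the rescue cultures and 0.997 to 4.71 CPM in March, and in the POLE4 experiment it had 0.918 CPM in one culture and 18.3 and 21.0 CPM in the others, a wider range than that of the other wild-type clones (3.19 to 9.51 CPM). The streak list was at 1.06 and 1.24 in August, 0.34 to 0.494 in March, -0.042 to 1.01 in the rescue cultures and 0.619 to 0.73 in the POLE4 experiment, against -0.48 to 0.956 in the other wild-type clones. The actomyosin list was at 0.759 and 0.952 in August, 0.589 to 0.741 in March, 0.352 to 0.716 in the rescue cultures and 0.708 to 0.918 in the POLE4 experiment, against -0.728 to 1.02 in the other wild-type clones. The fibroblast list was at 0.694 and 0.734 in August, 0.448 to 0.657 in March, 0.26 to 0.856 in the rescue cultures and 0.68 to 0.883 in the POLE4 experiment, against -0.339 to 0.632 in the other wild-type clones. Both lists were thus on the positive side in all 12 WT#1 libraries and cultures. The young L1 subfamilies were at -0.629 to 0.072 in March, 0.244 to 0.606 in the rescue cultures and -0.54 to -0.113 in the POLE4 experiment, against -0.252 to 0.221 in the other wild-type clones. Sp5 had 3.45 to 21.0 CPM over the 10 other cultures. Psme2b, high in August WT#1, had 4.52 to 6.27 CPM in March and 0.623 to 0.994 CPM in the rescue and POLE4 experiments. Counts of these 2 experiments were made separately from those of August and March, and the part of counting was not tested. The processed pseudogene Gm10233 had 81.7 and 80.5 CPM in August WT#1 and a median of 0.087 CPM in the 10 other cultures.

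**Figure D5:**
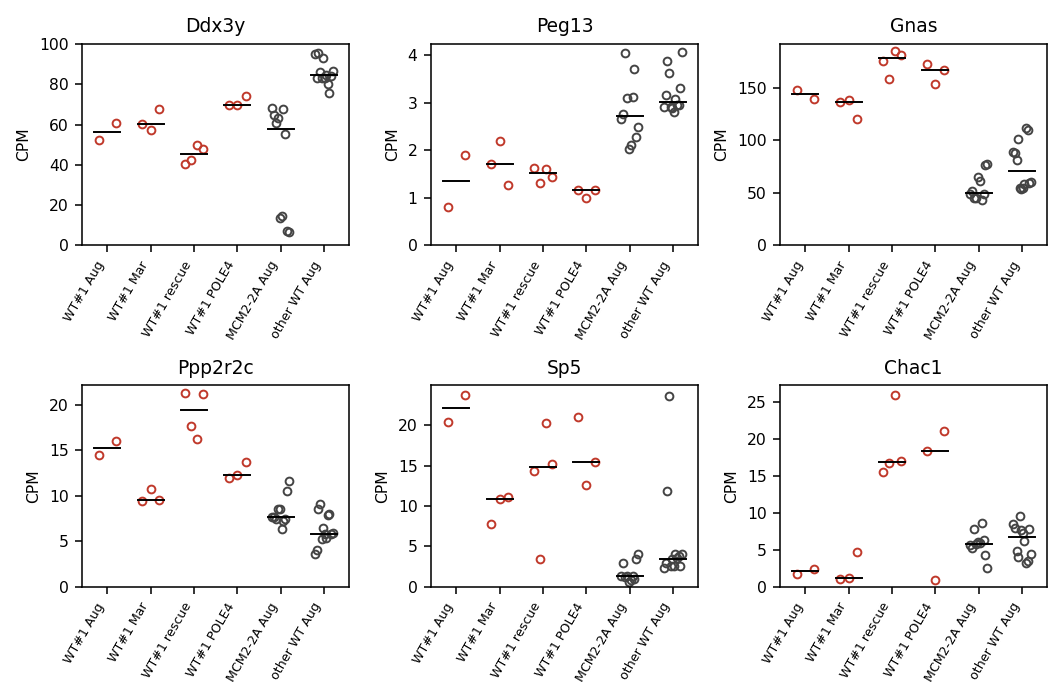
CPM (y axes, from 0) of 6 genes in the WT#1 libraries of August, March, the rescue and the POLE4 experiment (red), the August MCM2-2A clones and the 6 other August wild-type clones (both dark grey), 1 circle per library or culture and a bar at the median. WT#1 is below the other wild-type clones for Ddx3y and Peg13 and above them for Gnas and Ppp2r2c in all 4 sets, while Sp5 and Chac1 vary between WT#1 cultures.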

How the data were processed

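Total RNA-seq of mouse ESC clones was analysed from the deposited tables of raw read counts per gene and per repeat subfamily. Per the labels, the authors made strand-specific libraries from RNA depleted of ribosomal RNA and used Trimmomatic 0.39, STAR 2.7.1a, build mm10 and featureCounts, and the deposited counts are not normalized or pooled. The repeat annotation was that of TEtranscripts, and how reads mapping to several repeats were counted is not given in the sources used here. Gene names and positions came from GENCODE mouse release M21 (GRCm38) and promoter sequences from RefSeq (GRCm38.p6). Columns that match no sample in the labels (7) were not used.

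Counts of the 2 August libraries of a clone were summed (1 WT#1 unit against 6). Genes and repeats were kept by filterByExpr, with about 10 counts or more in any 1 clone at the median depth and 15 in total. They were fitted together in edgeR 4.0.16 (quasi-likelihood test, TMM factors from gene rows, R 4.3.3), with Benjamini-Hochberg adjustment over all genes and over all repeats separately. Calls needed an adjusted p under 0.01 and an absolute log2 fold change over 0.58. p-values measure the spread between the 6 other clones, with WT#1 assumed to vary like them. Levels are CPM on one TMM scale over all libraries used, with the 2 sequencing runs of 1 rescue culture summed. Tables of the other experiments were counted separately, so levels set across tables are descriptions. Named genes were the 20 of lowest p with at least 1 CPM in the higher group, filled up because fewer than 20 were called, plus Mcm2, Pole4, Pou5f1, Sox2 and Nanog. The members, the 27 gene lists, the 18 families and the 7 repeat lists were chosen with earlier results of these data known, and lists got no test. The libraries of each clone differed by more than sampling noise (chi-square per degree of freedom 14 to 48). The fit was tested on simulated counts for this comparison (22746 genes, fitted dispersions): of 25 genes raised and 25 lowered by each size, 10 and 7 were called at a log2 change of 1, 25 and 19 at 2, 25 and 23 at 3, and 25 and 25 at 4, with 2 false calls in all. In the data, Cpxm2, with a log2 fold change of 2.65 and an SE of 0.499, was not called. The simulated rates thus need not hold for the spread between the real clones. Alternatives were DESeq2 1.42.0, limma 3.58.1 (voom), RLE and upper quartile factors, other filters and thresholds, single libraries, all August clones together and leaving out each library or clone. A few genes that met these rules are not reported here by name.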

Additional observations from a re-analysis of the deposited data

Results flagged for a closer look

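Among 62 gene levels and list medians checked in the 6 other wild-type clones, 7 had 1 clone far from the remaining 5. For independent and normally spread values that were not picked beforehand, chance gives about 1 in 20. That rate need not hold here, because CPM need not be normally spread and some items were picked for their values in these clones. Items also move together, as T, Sp5, Mixl1 and Sox6 all have WT#2 as the outlying clone. Whether 7 is more than chance gives was therefore not tested. Values for the outlying clone come first. T averaged 28.1 CPM in WT#2, against at most 4.54 CPM in the next clone, Sp5 averaged 17.8 CPM in WT#2, against 3.63 CPM, and Mixl1 averaged 2.29 CPM in WT#2, against 0.834 CPM. Sox6 averaged 1.17 CPM in WT#2, against 0.805 CPM in the next clone. Col1a1 averaged 63 CPM in WT#4, against 14.5 CPM, Tet2 averaged 305 CPM in WT#6, against 204 CPM, and Pole4 averaged 54.9 CPM in WT#4, the lowest, against 66.9 CPM in the next clone. For T, Sp5, Mixl1, Sox6 and Col1a1 the outlying clone was on the side of WT#1, whose averages were 29.4, 22.1, 3.02, 1.87 and 45.9 CPM. The same held for Pole4, which averaged 51.8 CPM in WT#1. Tet2 was the exception, with an average of 111 CPM in WT#1.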

How the results depend on the processing

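The count of 0 called genes held under 20 of 21 alternatives and the count of 0 called repeats under all 21. Leaving out a WT#1 library or another clone gave 0 to 1 called genes, the 1 being Sp5 without WT#2 (adjusted p = 0.00927), and 0 called repeats. Genes at an unadjusted p under 0.05 numbered 812 without WT#3, 852 without WT#7, 2396 without WT#2, 2544 without WT#4, 2265 without WT#1 replicate 4, 3619 with single libraries in edgeR and 2791 in limma-voom, against 1416. With single libraries the libraries of a clone enter as separate samples, and in 7 of 7 clones the one with the higher number had the higher repeat share and the lower score on the first component. The cause of the other shifts was not tested. All 20 named genes kept their direction and stayed uncalled under all 21 alternatives. Their lowest adjusted p over the alternatives was 0.014, for Spats1. The alternative without WT#6 and WT#8 was chosen after seeing the data; it gave 0 calls and 1383 genes at an unadjusted p under 0.05. The list of 2-cell-like genes had a median log2 fold change of 0.35, and of -0.043 without WT#6 and WT#8. The run on chromosome 14 had medians of 0.318 to 0.577 when 1 library or clone was left out. No paired analysis was possible because the WT#1 libraries carry the numbers 4 and 5 and those of the other clones 1 and 2. One unit against 6 limits what can be seen: an exact permutation test of a single value could not go below p = 0.143. Genes under 1 CPM have few counts and wide intervals.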
